A study of Mus musculus with 3 samples.

Results

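The nuclear genes of oxidative phosphorylation (OXPHOS) were followed in the profile of H3K36me3, a histone methylation mark, of splenic and large intestinal (LI) Treg cells. Members were the GENCODE M21 protein-coding genes on nuclear chromosomes whose symbols begin with Nduf, Sdh, Uqcr, Cox4 to Cox8 or Atp5. These were 98 gene records with 97 symbols, out of 21938 protein-coding genes, because Atp5o has a usual record and a second, long record. By complex they were 46 genes of complex I, 8 of complex II, 8 of complex III, 18 of complex IV and 18 of complex V, and by role 86 subunits and 12 assembly factors. The rule itself uses gene symbols and no measured value, but it was set with earlier results of these data known.

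Trimethylation of histone H3 at lysine 36 (H3K36me3) was profiled by chromatin immunoprecipitation sequencing (ChIP-seq) in 1 library of splenic and 1 of LI Treg cells. Both came from adult C57BL/6 mice at steady state that carry Foxp3Cre-YFP, a fusion of Cre recombinase and yellow fluorescent protein expressed from the Treg lineage gene Foxp3. CD3+CD4+Foxp3-YFP+ cells of 7 male and 7 female mice were pooled, so that the data give no measure of the spread between animals, and no sample lacked the reporter allele. The remaining library, the input of splenic Treg chromatin, was not analysed here. With 1 library per tissue no test was possible, and tissue and library cannot be told apart.

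H3K36me3 is written by Setd2 as RNA polymerase II travels along a gene, and it is a mark of transcribed gene bodies that grows towards the 3′ end. OXPHOS couples the transfer of electrons through complexes I to IV of the inner mitochondrial membrane to ATP synthesis by complex V. Most of its subunits are encoded in the nucleus and imported, a few are encoded by mitochondrial DNA, and Treg cells are known to rely strongly on this pathway.

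At least 1 H3K36me3 peak had its midpoint in the body of 84 of the 98 members (85.7%), compared with 45.8% of all protein-coding genes and 37% of those under 20 kb. The members held 386 distinct peaks of the 120910 in the table, with a median of 3 peaks in those past the filter described later. Of the 84, 22 had a single peak and 10 had 10 or more, with the most in Ndufs1 (25 peaks). Also among the 84, 6 genes had 1 weak peak each and stayed under the filter: Ndufaf4, Ndufb3, Uqcr10, Cox6a1, Cox7c and Cox8a. A peak was present on Sdha, Sdhb, Sdhc and Sdhd (6 of 8 complex II genes in all), on all 8 complex III genes, on 41 of 46 complex I genes, 16 of 18 complex V genes and 13 of 18 complex IV genes. The 14 members without a peak were Ndufa1, Ndufa2, Ndufa4l2, Ndufaf3, Ndufb11, Sdhaf1, Sdhaf3, Cox4i2, Cox6a2, Cox6b2, Cox7b2, Cox8c, Atp5k and Atp5s. Of these, Ndufa2, Ndufa4l2 and Ndufaf3 were touched by 1 peak each whose midpoint lay outside the gene.

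The share with a peak was high at nearly every gene length. Between 5 and 10 kb, 32 of 32 members had a peak, compared with 37.9% of all protein-coding genes of that length. From 2.5 to 5 kb the share was 14 of 15 members against 29.4%, and from 10 to 20 kb it was 15 of 17 against 53.6%. The lowest share was in members under 2.5 kb, where 8 of 17 had a peak (47.1%) compared with 10% of all genes so short. A gene without a peak is one in whose body no called peak had its midpoint, which in a very short gene rests on few reads.

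**Figure D1:**
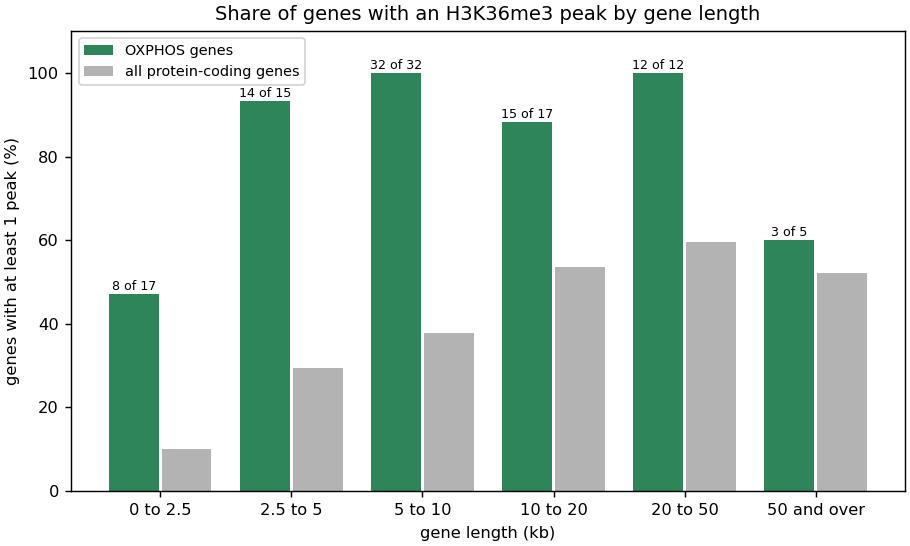
Bars give the share (%, y axis, from 0) of nuclear OXPHOS genes and of all protein-coding genes with at least 1 H3K36me3 peak midpoint in the body, by gene length (kb, x axis), with the member counts above the bars. The members lie above all genes in each length class, and 32 of 32 members between 5 and 10 kb had a peak. In the longest class the gap is small, at 3 of 5 members (60%) against 52.2% of all genes. The long Atp5o record, whose peaks lie in other genes or the usual Atp5o gene, is among those 3.

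Several subunits exist as a widely expressed gene and a relative known mainly from muscle, testis, lung or hypoxic cells. All 11 widely expressed genes of these sets (Cox4i1, Cox6a1, Cox6b1, Cox7a2, Cox7a2l, Cox7b, Cox8a, Ndufa4, Atp5g1, Atp5g2 and Atp5g3) had a peak. Of the 8 restricted relatives, 2 had a peak: Cox7a1, the muscle form of Cox7a, and Cox8b, a form known from muscle and brown fat. Cox4i2, Cox6a2, Cox6b2, Cox7b2 and Cox8c had none, and Ndufa4l2 was touched by 1 peak whose midpoint lay outside it. The marked widely expressed genes were not all strongly marked: Cox6a1 had 5.58 RPKM in spleen and 11 in LI in its only peak, and Cox8a 7.57 and 9.14 RPKM. Ndufa4, which is listed under complex I by its symbol although it is now counted to complex IV, had a summed signal of 39.7 and 32.2 RPKM. Over all protein-coding genes 45.8% had a peak, and 10% of those under 2.5 kb. The restricted genes Cox6a2, Cox6b2, Cox7a1, Cox8b, Cox8c and Ndufa4l2 are that short, from 953 to 2188 bp. Cox4i2 (10865 bp) and Cox7b2 (105382 bp) are longer. Of the widely expressed genes only Cox8a (2464 bp) is under 2.5 kb. The part of gene length in this contrast was not tested. The division into wide and restricted use is background knowledge and was not measured here.

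To show the sequence upstream of members that the results name, the stretch upstream of the RefSeq start site (GRCm38.p6) that is free of annotated exons is printed for 5 members. They are Cox6a1 and Atp5l, which hold the core motif of NRF1, a factor known for driving nuclear respiratory genes, Ndufb6, which has the lowest ratio of complex I, and the pair Cox7a2 and Cox7a1. Each is read 5′ to 3′ on the strand of its gene, and capitals mark the motifs searched on both strands, which were GCATGCGC (NRF1 core), CCGGAAG (ETS family, including GABP), AAGATGG (YY1) and GGGCGG (SP1 box). The windows are chr5:115348982-115349129 (Cox6a1), chr9:44920752-44920992 (Atp5l), chr4:40279422-40279671 (Ndufb6), chr9:79759879-79760103 (Cox7a2), all on the minus strand, and chr7:30183921-30184143 (Cox7a1) on the plus strand. In Cox6a1 the NRF1 core was found on both strands in overlapping positions.
Cox6a1: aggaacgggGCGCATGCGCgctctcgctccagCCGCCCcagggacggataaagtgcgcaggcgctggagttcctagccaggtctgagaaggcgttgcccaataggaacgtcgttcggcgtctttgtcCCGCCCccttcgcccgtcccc
Atp5l: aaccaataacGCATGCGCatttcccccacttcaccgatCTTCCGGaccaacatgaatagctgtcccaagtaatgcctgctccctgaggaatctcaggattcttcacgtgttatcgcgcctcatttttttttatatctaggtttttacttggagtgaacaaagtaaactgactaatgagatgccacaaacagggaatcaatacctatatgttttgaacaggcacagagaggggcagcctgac
Ndufb6: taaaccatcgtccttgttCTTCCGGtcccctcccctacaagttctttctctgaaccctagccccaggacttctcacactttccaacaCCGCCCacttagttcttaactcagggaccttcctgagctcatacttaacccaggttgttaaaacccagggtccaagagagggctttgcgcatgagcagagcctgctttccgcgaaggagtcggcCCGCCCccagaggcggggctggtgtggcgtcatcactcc
Cox7a2: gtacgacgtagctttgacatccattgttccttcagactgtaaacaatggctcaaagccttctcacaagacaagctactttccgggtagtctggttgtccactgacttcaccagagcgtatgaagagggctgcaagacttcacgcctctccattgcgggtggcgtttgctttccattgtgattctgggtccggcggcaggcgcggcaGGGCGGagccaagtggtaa
Cox7a1: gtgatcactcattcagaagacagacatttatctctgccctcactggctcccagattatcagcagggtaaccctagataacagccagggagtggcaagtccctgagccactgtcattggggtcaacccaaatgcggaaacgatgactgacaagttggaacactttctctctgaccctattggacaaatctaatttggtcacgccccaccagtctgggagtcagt

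A RefSeq promoter was matched for 80 of the 98 members (81.6%), 2 of them by another symbol of the same gene. Within 250 bases before the start site, the NRF1 core stood in 9 of 80 members (11.25%), compared with 3.13% of 16858 protein-coding promoters and 4.99% of the 7998 whose gene had a peak. The 9 were Atp5g2, Atp5k, Atp5l, Cox6a1, Ndufa6, Ndufa8, Ndufa11, Ndufaf4 and Sdhb. The ETS motif stood in 15 members (18.75%), compared with 9.43% of all promoters and 16% of those with a peak. The SP1 box stood in 34 (42.5%), compared with 44.2% and 61.2%. The YY1 letters stood in 0 of 80 windows, compared with 4.08% and 4.36%. A match describes letters in a window and not binding. The window ends before the start site, so motifs at or after that site were not searched. Of the printed pair, the Cox7a2 stretch held 12 CpG in 225 bases and the Cox7a1 stretch 3 in 223 bases.

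The level of H3K36me3 per length, that is, the read density in RPKM, a unit that corrects for length and library depth, averaged over the whole gene body with 0 outside peaks, spanned the members widely. In the 84 members with a peak, the median level was 5.74 in spleen and 5.35 in LI. Over the 10037 protein-coding genes with a peak it was 4.26 and 4.39, and in the 4354 of them under 20 kb it was 6.17 and 6.44. In genes with a peak, peaks covered a median of 44.7% of the member bodies and 34.5% of all gene bodies. For the ratios that follow and where a filter is named, genes had to reach 20 RPKM summed over both libraries, which 78 members and 9455 of all genes did.

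The highest mean level of both libraries was that of Atp5b, the catalytic beta subunit of ATP synthase. It had 25.2 RPKM in spleen and 19.7 in LI, with 1 peak of 7694 bp that covered 100% of the gene. In LI alone, Ndufs7, Uqcrc1, Sdhb and, by a small margin, Atp5o were higher. Atp5a1, the alpha subunit, had 20.2 and 18.6 RPKM, and Atp5o, which joins the catalytic head to the peripheral stalk, 18.8 and 19.7. Atp5c1, the gamma subunit of the central shaft, was lower at 6.87 and 6.86 RPKM. Of the genes for subunit c of the membrane-embedded ring, Atp5g2 had a level of 8.81 and 7.54 RPKM, Atp5g3 of 7.02 and 6.67, and Atp5g1 of 4.57 and 4.35.

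In complex I, which oxidises NADH, the highest level was that of Ndufs7, the subunit that holds the last iron-sulfur cluster before ubiquinone, with 17.1 RPKM in spleen and 21.6 in LI. Ndufv1, which binds NADH, had 11.8 and 14.7 RPKM. Ndufs1, the largest iron-sulfur subunit, had 7.49 and 7.05 RPKM over its 33238 bp. The lowest level past the filter was that of Ndufs4, an accessory subunit gene of 100464 bp, with 0.104 RPKM in spleen and 0.0746 in LI and peaks over 1.16% of the body. Ndufaf2, an assembly factor gene of 155909 bp, followed with 0.204 and 0.156 RPKM.

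Complex II, the succinate dehydrogenase shared with the tricarboxylic acid cycle, was led by Sdhb, its iron-sulfur subunit, with 17.2 RPKM in spleen and 20.4 in LI. The flavoprotein gene Sdha had 9.44 and 9.07 RPKM, and the membrane anchors Sdhd and Sdhc 10.3 and 9.63, and 7.19 and 6.50 RPKM. In complex III, which passes electrons to cytochrome c, the core protein genes Uqcrc1 and Uqcrc2 had 18.7 and 21.3, and 10.7 and 10.3 RPKM. Uqcrfs1, the Rieske iron-sulfur protein, was far lower at 2.12 and 2.01 RPKM. In complex IV, which reduces oxygen, Cox4i1 led with 17.7 and 18.8 RPKM, followed by Cox6b1 with 10.3 and 10.6 RPKM, while Cox5a and Cox5b stayed at 2.66 and 2.47, and 3.57 and 4.28 RPKM. Among genes with a peak, the median level of complex IV was 2.85 RPKM in spleen and 2.82 in LI, the lowest of the complexes, compared with 8.67 and 7.22 RPKM in complex V. Both Cox4i1 peaks also lie in the gene model Gm20388, so the signal cannot be split between these genes.

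**Figure D2:**
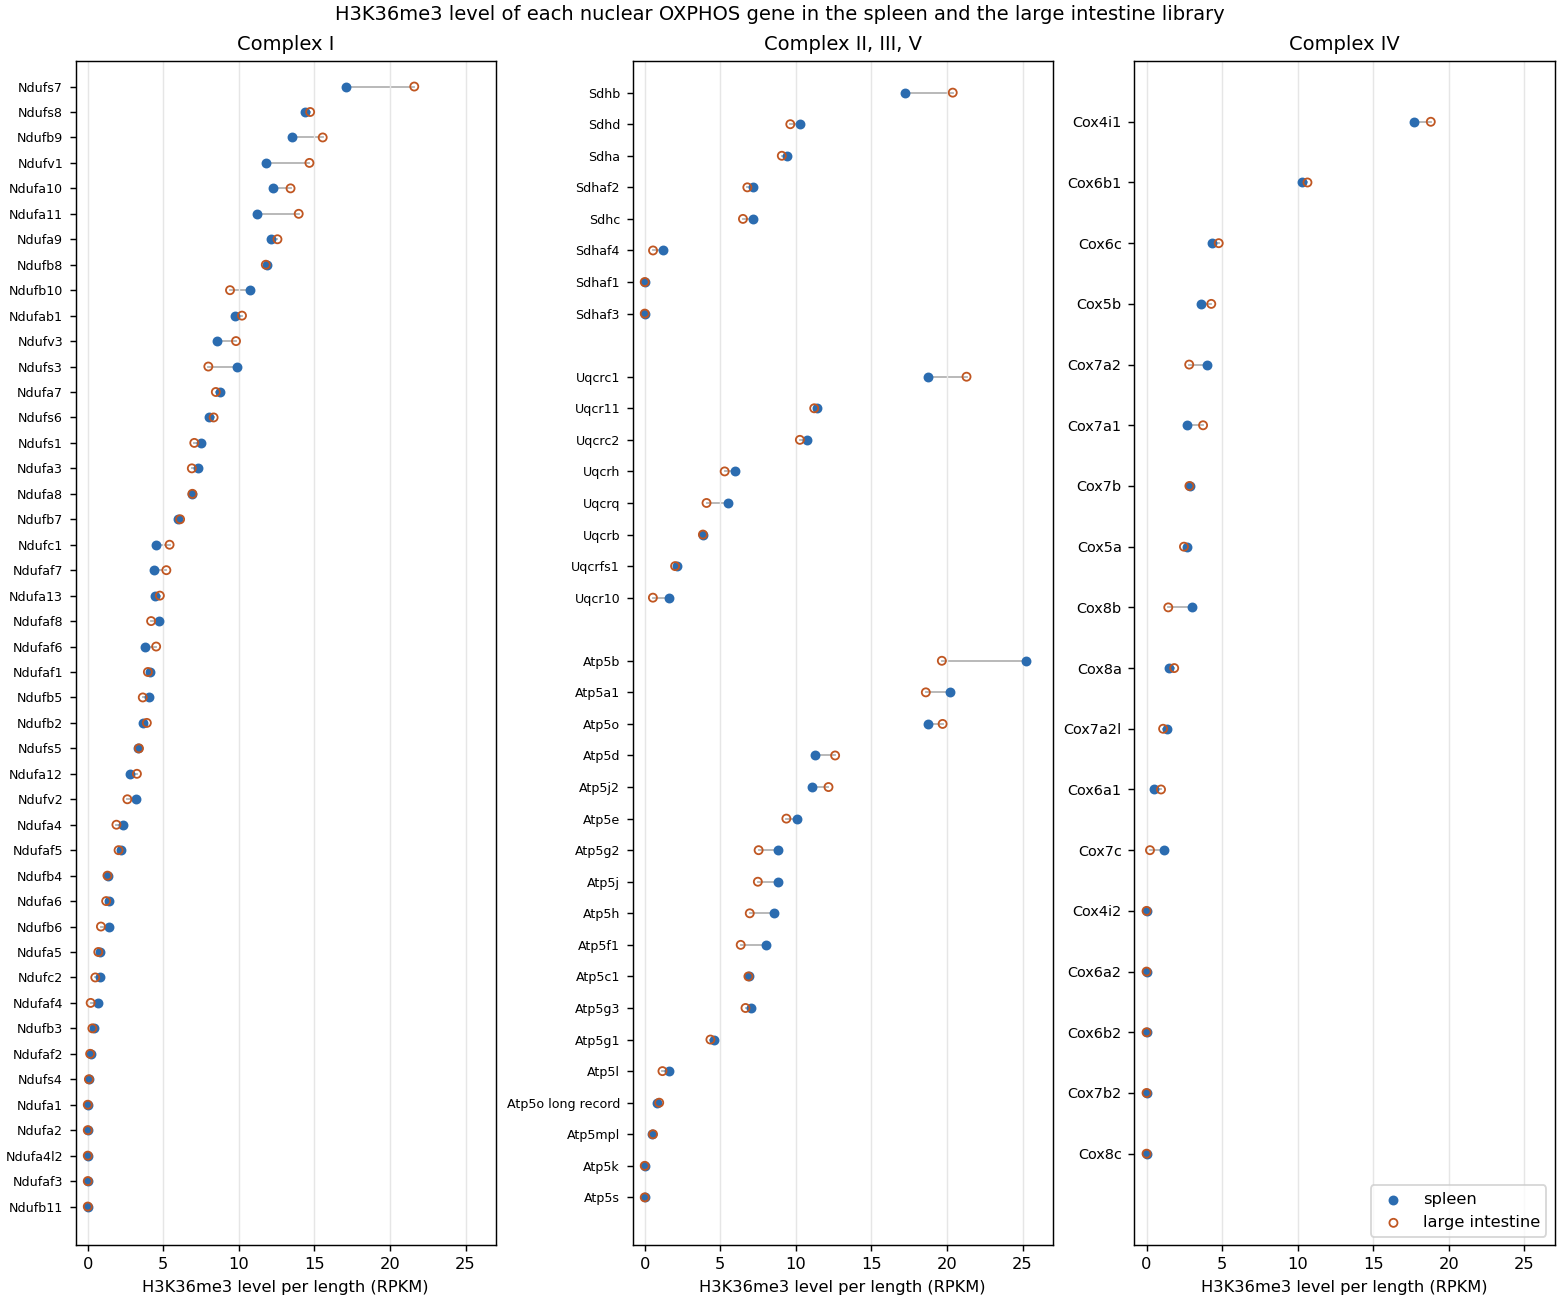
Each row is 1 of 97 members, ordered within its complex by mean level. Filled circles give the level of H3K36me3 per length (RPKM, x axis) in spleen and open circles that in LI, with members without a peak at 0. Atp5b lies highest in spleen with 25.2 RPKM, Ndufs7 highest in LI with 21.6, and both circles of most members lie close together.

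Along the gene body the members carried the mark towards the end. In the 87 members touched by a peak, the mean signal was 0.516 RPKM in spleen and 0.522 in LI over the first 10% of the body, 7.05 and 7.07 between 40 and 50%, and 12.4 and 12.7 over the last 10%. A peak covered some of the first 10% in 11.5% of these members and some of the last 10% in 90.8%. The shares were 31.2% and 81.9% in all protein-coding genes touched by a peak, and 22.8% and 79.0% in those under 20 kb. All 10244 protein-coding genes touched by a peak began higher, at 1.15 and 1.25 RPKM, and ended lower, at 9.38 and 9.94 RPKM. Genes under 20 kb began at 1.42 and 1.65 RPKM and had their maximum of 12.6 and 13.3 between 80 and 90%. Of the 387 pairs of a member and a peak, 260 (67.2%) had the peak midpoint in an intron, 76 within 1 kb of a transcript start, 34 in an untranslated or non-coding exon and 17 in a coding exon. No share over all genes is given for this split, so it describes the members only.

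**Figure D3:**
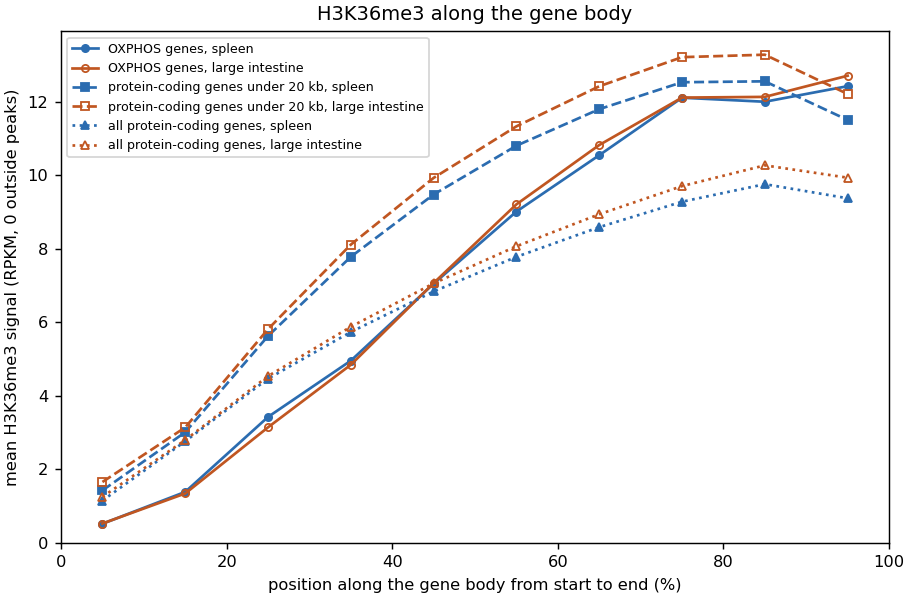
Mean H3K36me3 signal (RPKM, y axis, 0 outside peaks) in 10 equal parts of the gene body from start to end (%, x axis) for OXPHOS genes, protein-coding genes under 20 kb and all protein-coding genes with a peak, in spleen and LI. The member lines of both tissues nearly coincide and end at 12.4 RPKM in spleen and 12.7 in LI.

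The question the design poses is whether the mark on these genes differs between splenic and LI Treg cells. For each gene the mean RPKM of its peaks was summed in each library after scaling both columns to the same total, and the log2 ratio of LI over spleen was taken with 0.5 RPKM added to each. OXPHOS genes had similar signal in both libraries. The median log2 ratio of the 78 members past the filter was -0.06, with the middle 50% between -0.26 and 0.11, compared with a median of 0.00 and a middle 50% between -0.20 and 0.23 over all 9455 genes. Of the members, 31 were higher in LI and 47 higher in spleen, and 70 (89.7%) had a log2 ratio within 0.5 of 0, compared with 81.3% of all genes. Across the 78 members the log2 signals of both libraries had a Pearson r of 0.96, compared with 0.95 across all genes, where the genes share the libraries and the peak lengths.

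A difference of over 2-fold was found in 0 members towards LI, where the background was 3.22% of all genes and 3.26% of those under 20 kb. Towards spleen it was found in 2 members (2.56%), Sdhaf4 and Cox8b, with a background of 1.83% and 1.24%. An approximate 95% counting interval was set for each ratio from the read depth recovered from the values, about 2.96e+07 reads in spleen and 3.81e+07 in LI, with each read taken to cover 200 bp. The sequenced reads were single-end and 75 nt long, so 200 bp is an assumption. Read numbers per gene given below rest on it too, and would be larger at 75 bp. The interval covers counting error only. It lay above 0 in 4 members (5.13%), where the background was 18.5% of all genes and 17.2% of those under 20 kb. It lay below 0 in 4 members (5.13%), with a background of 15.9% and 8.75%. The median counting error of the log2 ratio was 0.20 in members, 0.15 in all genes and 0.19 in genes under 20 kb. If each read is taken to cover 75 bp, 13 member intervals (16.7%) lay above 0 and 21 (26.9%) below 0, compared with 28.7% and 26.8% of all genes.

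**Figure D4:**
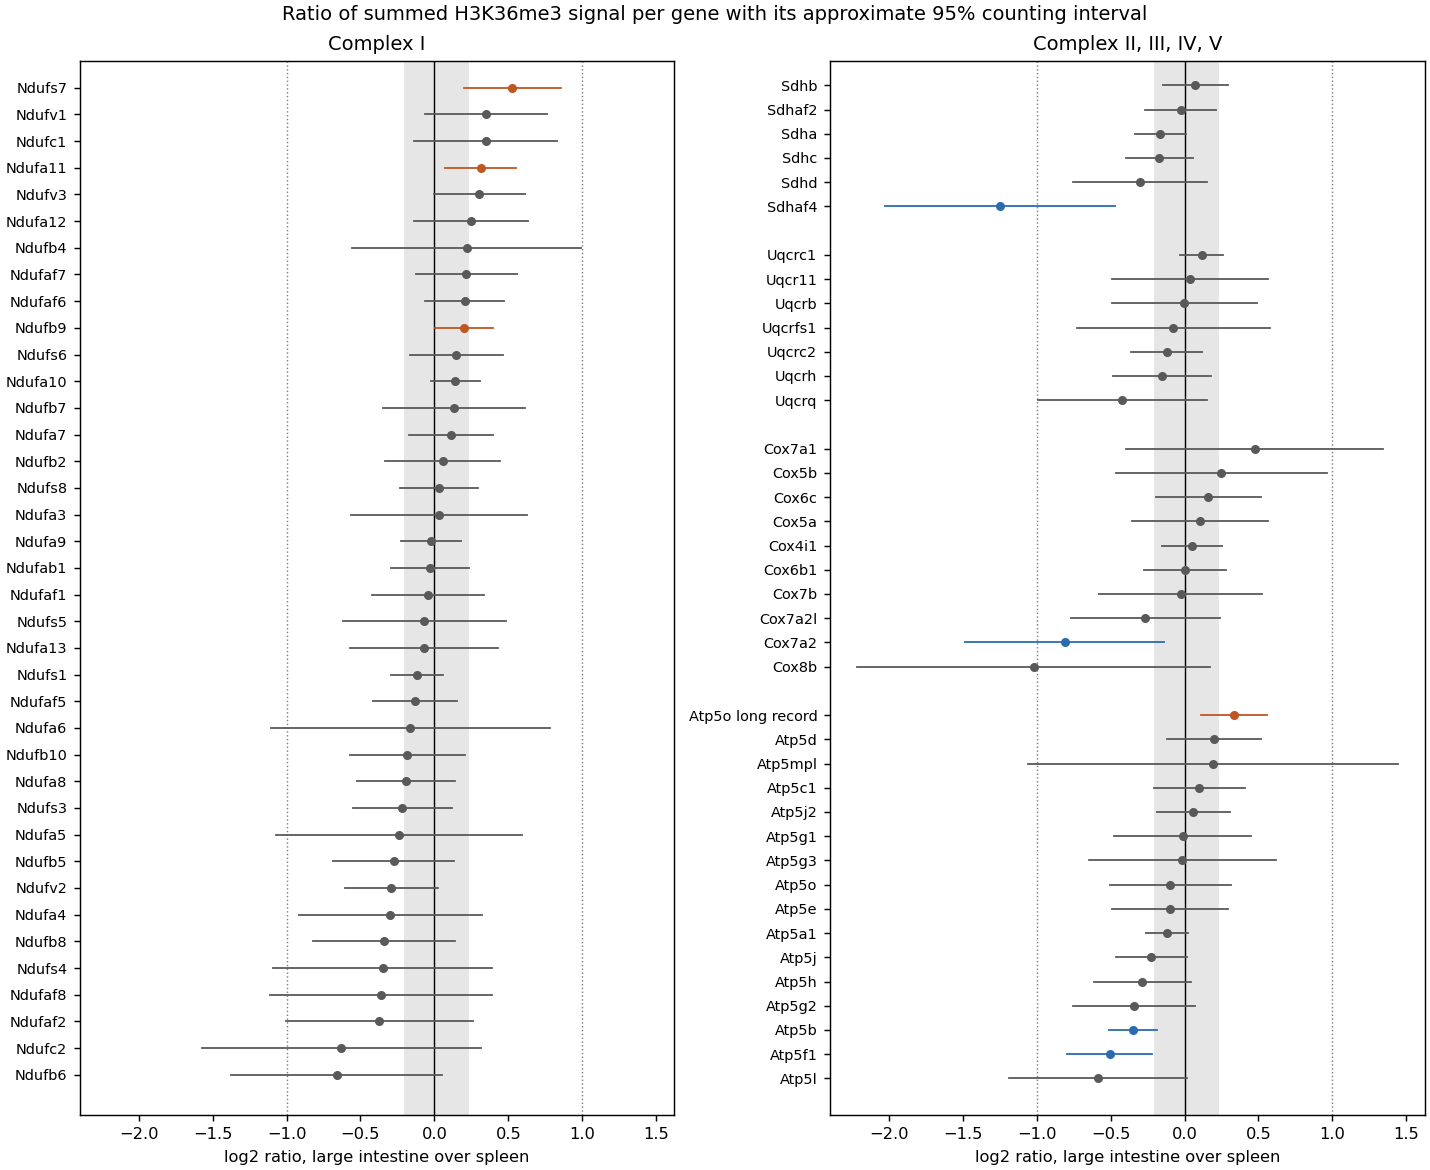
Points give the log2 ratio of summed H3K36me3 signal, LI over spleen (x axis), of 77 of the 78 members past the filter, and lines the approximate 95% counting interval. The grey band is the middle 50% of all protein-coding genes, the dotted lines mark 2-fold, and orange and blue mark the 4 intervals above 0 and the 4 below 0.

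By complex, the median log2 ratio was -0.04 in complex I (39 genes past the filter), -0.17 in complex II (6), -0.08 in complex III (7), 0.03 in complex IV (10) and -0.10 in complex V (16). It was -0.05 in the 70 subunits and -0.09 in the 8 assembly factors past the filter. Within complexes the ratios ran to both sides of 0: complex I held the highest ratio of all members, 0.53 in Ndufs7, and a ratio of -0.66 in Ndufb6, an accessory subunit with 29.8 RPKM in spleen and 18.7 in LI (0.22 with its strongest peak alone). In complex III the lowest ratio was -0.42, in Uqcrq, a small subunit, with 22.0 and 16.3 RPKM. After a correction for the GC content of the peaks, the median of complex III turned from -0.08 to 0.02, while those of the other complexes kept their sign.

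Most core subunits lay close to 0 in ratio. Ndufs1 had a summed signal of 271 RPKM in spleen and 249 in LI, a log2 ratio of -0.12. The ratio was 0.35 in Ndufv1 and, in Ndufv2, an iron-sulfur subunit that partners Ndufv1, -0.29. Sdha stood at 163 and 145 RPKM with a ratio of -0.16, Sdhb at 76.6 and 80.6 with 0.07, Sdhc at -0.17 and Sdhd at -0.30. Uqcrc1 had 87.9 and 95.2 RPKM with 0.11, Uqcrc2 104 and 95.5 with -0.12, and Uqcrfs1 12.6 and 12 with -0.08. The ratio was 0.05 in Cox4i1, 0.10 in Cox5a and 0.25 in Cox5b, and it was -0.12 in Atp5a1 and 0.10 in Atp5c1. The interval held 0 in each of these genes, unlike Atp5b, whose values follow.

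The largest difference among the 78 was in Sdhaf4 (chr1:23995939-24005656, minus strand, mm10), a chaperone that helps assemble the flavinated Sdha into complex II. It carried 44.9 RPKM in the spleen library and 18.6 in LI, a log2 ratio of -1.25 with an interval from -2.02 to -0.47, or 2.37-fold higher in spleen on the scale with 0.5 RPKM added. Each of the 4 peaks had more signal in the spleen library. They were short and rested on about 34.5 reads in spleen and 20.6 in LI, and the level per length was only 1.22 and 0.549 RPKM. With the strongest peak alone the log2 ratio was -0.39. The other complex II genes past the filter lay between -0.30 and 0.07.

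Cox8b, the second gene past 2-fold, had a single peak of 259 bp within 1 kb of a start, with 17.4 RPKM in spleen and 8.33 in LI and about 13.1 and 8.34 reads. Its log2 ratio was -1.02, and the interval of -2.21 to 0.17 held 0. When any overlap of peak and gene counts, the log2 ratio was -0.17. Its muscle counterpart Cox7a1 differed in the other direction, with 10.4 RPKM in spleen and 14.7 in LI and a log2 ratio of 0.48 (interval -0.39 to 1.34), the highest of complex IV.

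Sequences are printed for 4 intronic peaks of Sdhaf4, Cox7a2 and Ndufs7 that weigh heavily in the difference of their gene, read from GRCm38 (mm10) on the strand of the gene, with CpG in capitals. The first Sdhaf4 peak, chr1:24002044-24002267, had 13.8 RPKM in spleen and 2.30 in LI, 43.8% of the gene's difference in summed signal, and holds 11 CpG. The second, chr1:23997915-23998144, had 7.90 and 1.92 RPKM (22.8%) and holds 6 CpG. The Cox7a2 peak, chr9:79757197-79757494, had 10.6 and 3.0 RPKM (52.6%) and holds 1 CpG. These lie on the minus strand genes. The Ndufs7 peak, chr10:80251377-80251655 on the plus strand, was higher in LI, with 5.83 and 14.1 RPKM (53.9%), and 40.9% of its bases are masked as repeats in the reference.
Sdhaf4 peak, first: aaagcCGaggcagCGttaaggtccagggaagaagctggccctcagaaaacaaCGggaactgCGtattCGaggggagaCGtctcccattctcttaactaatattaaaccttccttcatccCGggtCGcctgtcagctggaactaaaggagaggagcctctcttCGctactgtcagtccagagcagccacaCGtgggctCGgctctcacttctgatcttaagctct
Sdhaf4 peak, second: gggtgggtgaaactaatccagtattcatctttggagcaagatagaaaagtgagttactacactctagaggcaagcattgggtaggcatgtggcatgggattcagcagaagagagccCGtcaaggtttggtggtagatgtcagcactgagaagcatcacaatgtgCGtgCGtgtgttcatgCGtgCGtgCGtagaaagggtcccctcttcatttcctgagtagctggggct
Cox7a2 peak: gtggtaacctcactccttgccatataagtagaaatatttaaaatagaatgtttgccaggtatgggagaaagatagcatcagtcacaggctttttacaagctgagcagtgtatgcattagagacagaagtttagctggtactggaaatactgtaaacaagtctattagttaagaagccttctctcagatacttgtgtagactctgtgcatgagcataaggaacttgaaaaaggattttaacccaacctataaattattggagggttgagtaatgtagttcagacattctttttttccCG
Ndufs7 peak: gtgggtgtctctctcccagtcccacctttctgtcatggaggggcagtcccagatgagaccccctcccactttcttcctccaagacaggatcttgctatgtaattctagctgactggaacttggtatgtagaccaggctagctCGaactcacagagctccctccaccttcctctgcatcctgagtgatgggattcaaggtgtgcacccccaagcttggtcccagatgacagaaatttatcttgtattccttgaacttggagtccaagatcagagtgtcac

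Cox7a2 (chr9:79755361-79759878), the widely expressed form of Cox7a, had a summed signal of 33.0 RPKM in spleen and 18.6 in LI, a log2 ratio of -0.81 (interval -1.48 to -0.14). The 3 peaks had more signal in spleen throughout. The long peak at its 3′ end differed least, with 12.4 and 10.4 RPKM and a log2 ratio of -0.25, and the printed short peak most, with a log2 ratio of -1.66. With peaks weighted by length the ratio of the gene was -0.48. The related gene Cox7a2l, known for joining complexes III and IV, had a log2 ratio of -0.27 with an interval that held 0.

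In complex V, Atp5f1 (chr3:105942698-105960099), the stalk subunit b, had a summed signal of 108.0 RPKM in spleen and 75.8 in LI over 9 peaks, a log2 ratio of -0.51 (interval -0.79 to -0.22). Of its peaks, 7 were higher in spleen and 2 in LI, among them the strongest, at the 3′ end, with 16.2 and 17.1 RPKM. After the GC correction the ratio was -0.19. Atp5b (chr10:128083273-128090391) had 25.2 RPKM in spleen and 19.7 in LI in its single long peak, with about 565 and 585 reads, and a log2 ratio of -0.35 (interval -0.51 to -0.19). The difference was 1.27-fold in size. Atp5l, the membrane subunit g, had the lowest ratio of the complex, -0.58, from 18.5 and 12.2 RPKM, with an interval of -1.19 to 0.02.

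The members higher in LI with an interval above 0 were led by Ndufs7 (chr10:80249121-80256794), with 34.3 RPKM in spleen and 49.7 in LI and a log2 ratio of 0.53 (interval 0.20 to 0.86). Both of its peaks were higher in LI, and the long one that spans the 3′ part of the gene had 28.4 and 35.5 RPKM, a log2 ratio of 0.32. The accessory subunit gene Ndufa11 had 17.3 and 21.7 RPKM with a ratio of 0.31 (interval 0.07 to 0.55). Its single peak had a GC content of 58.1%, and after the GC correction the ratio was -0.02. Ndufb9, another accessory subunit, had 20.9 and 24.1 RPKM with a ratio of 0.20 and a lower bound of 0.0034, next to 0. Ndufv3, with 89.1 and 110 RPKM, came closest to these with a ratio of 0.30 and an interval that held 0.

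The fourth was the long record of Atp5o, of 242585 bp, with a log2 ratio of 0.34 (interval 0.11 to 0.56). Of its 19 peaks, 17 lie in Cryzl1, 1 in Itsn1 and 1 in the usual Atp5o gene, so its value does not describe Atp5o. The usual Atp5o record had 34.7 RPKM in spleen and 32.5 in LI and a log2 ratio of -0.10 (interval -0.51 to 0.31). In all, 10 members shared peaks with another protein-coding gene and 3 shared all of them, Cox4i1, Ndufa13 with Yjefn3, and the long Atp5o record. Without the long record the member median was -0.07.

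The ratio varied with the GC content of the peaks. Across all 9455 genes the log2 ratio and the mean GC content of the peaks had a Pearson r of 0.33, and across the 78 members it was 0.22, where the genes share both libraries. In genes with a peak, the median peak GC content was 46.2% in members, 48.3% in all genes and 50.8% in genes under 20 kb. After the GC correction the member median was -0.06, compared with -0.01 in all genes and -0.03 in genes under 20 kb, and 1 member interval (1.28%) lay above 0 and 4 (5.13%) below 0. In all genes 12.4% lay above 0 and 14.3% below 0 after the same correction, and in genes under 20 kb 7.91% and 11.9%.

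The sorted identity was checked on markers. All 6 Treg markers (Foxp3, Il2ra, Ctla4, Ikzf2, Cd3e and Cd4) had peaks, with levels summed over the list of 71.5 RPKM in spleen and 69.9 in LI. Of 12 intestinal epithelial markers, 4 had a peak (Epcam, Lgals4, Cldn7 and Vil1), with summed levels of 2.31 RPKM in spleen and 3.94 in LI, and Cdh1, Cdx1, Cdx2, Krt8, Krt18, Krt19, Krt20 and Muc2 were at 0. Of 5 B cell markers 3 had a peak (summed 5.97 and 6.36 RPKM), with Ms4a1 at 0, and of 5 myeloid markers 2 had a peak (14.7 and 14.3 RPKM), with Adgre1, Itgam and Lyz2 at 0. The summed level of the epithelial markers was thus low but higher in LI. Past the filter, the interval lay above 0 in Epcam (0.23 to 1.46) and held 0 in Cldn7 and Lgals4. Vil1 stayed under the filter. The part of these markers in the ratios of the members was not tested.

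Other genes of the pathway and of mitochondria were set beside the members. Of 48 further OXPHOS genes outside the symbol rule, mostly assembly factors and cytochrome c, 37 had a peak and 34 passed the filter, with a median log2 ratio of 0.05. None of the 34 passed 2-fold, and the interval lay above 0 in 3 of them, Acad9, Cox18 and Cox19, and below 0 in 0. Acad9, a complex I assembly factor, had 65.9 RPKM in spleen and 80.7 in LI. The 18 tricarboxylic acid cycle and pyruvate dehydrogenase genes all passed the filter, with a median of -0.05 and 0 intervals above and 3 below 0. Of 78 mitochondrial ribosomal protein genes 70 passed, with a median of 0.00 and 6 and 1 intervals. Of 20 regulators of mitochondrial gene expression 17 passed, with a median of 0.04 and 1 and 2 intervals. Over all genes 18.5% of intervals lay above 0 and 15.9% below. After the GC correction the regulators had a median of -0.02, with 3 intervals above 0 (17.6%) and 5 below (29.4%). All genes then had 12.4% above and 14.3% below. The corrected counts were 1 and 1 in the further OXPHOS genes, 0 and 2 in the tricarboxylic acid cycle list, and 4 and 4 in the ribosomal protein genes. Among them Nrf1 stood at 522 and 537 RPKM and Tfam, which packages mitochondrial DNA, at 87.6 and 81.6 RPKM. Ppargc1a, known from muscle and brown fat as a coactivator of mitochondrial genes, had no peak. Ppargc1b had 189 and 162 RPKM summed over 17 peaks, but a level per length of only 1.14 and 1.02.

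Glycolysis genes had higher ratios. Of 22 gene records, 18 passed the filter and 16 of them were higher in LI, with a median log2 ratio of 0.30 and a middle 50% of 0.16 to 0.43. Intervals lay above 0 in 9 (50%) and below 0 in 1 (5.56%), compared with 18.5% and 15.9% of all genes. Gapdh was the gene past 2-fold, with 5.48 RPKM in spleen and 16.2 in LI in a single peak with a GC content of 64.4%. Its log2 ratio was 1.49 (interval 0.50 to 2.47), and the level per length was only 0.639 and 1.89 RPKM. Slc2a1, the glucose transporter, had 139 and 200 RPKM with a ratio of 0.52. The median peak GC content of the list was 50.7%, and the median ratio after the GC correction, over the 17 genes still past the filter, was 0.19. Intervals then lay above 0 in 7 (41.2%) and below 0 in 1 (5.88%), compared with 12.4% and 14.3% of all genes. The difference between the glycolysis and the OXPHOS genes was not tested.

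**Figure D5:**
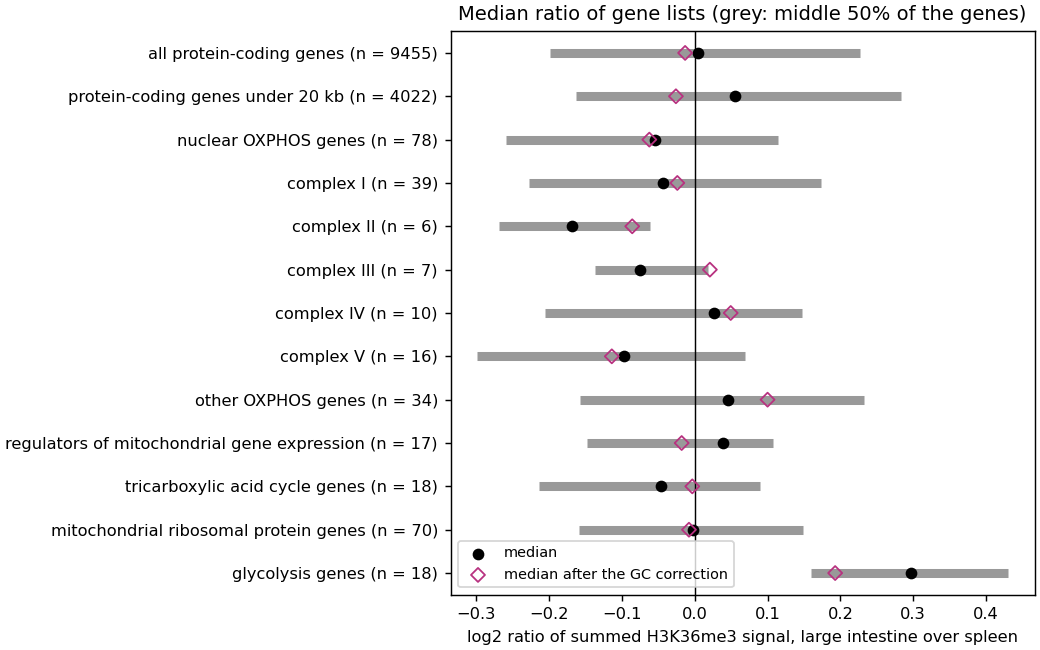
Points give the median log2 ratio of summed H3K36me3 signal, LI over spleen (x axis), of each gene list, grey bars the middle 50% of its genes, and diamonds the median after the GC correction. The OXPHOS median is -0.06 with and without the correction, and the glycolysis median moves from 0.30 to 0.19.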

How the data were processed

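Treg cells of spleen and LI gave 1 ChIP-seq library each. The deposited table holds RPKM values made by the authors. Reads were aligned to mm10 (Bowtie2 in the submitters' processing notes), peaks were called per tissue with MACS2 at p 0.01 against input and merged with bedtools, and bamCoverage tracks were averaged over each merged peak. The name of the table speaks of raw counts, but its values are not whole, so no count model was used. The smallest step of the values gave about 2.96e+07 reads for spleen and 3.81e+07 for LI.

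Here each column was multiplied to a common total (1.02 and 0.984). Peaks with their midpoint in a GENCODE M21 gene body were summed, 0.5 RPKM was added, and genes that reached 20 RPKM summed over the libraries were kept. A peak inside overlapping genes counted for each. Named genes were core subunits, isoform sets, the extremes of each complex, and the members past 2-fold or with the most extreme intervals, and genes named outside this rule were picked after their values were seen. Members, lists and rules were chosen with earlier results of these data known. Of the core subunits, 1 is not reported here and not drawn, but stays in all counts and medians. The script was tested on simulated data. Python 3.11.15, numpy 2.4.6, pandas 2.3.3, scipy 1.17.1, pysam 0.24.0 and matplotlib 3.10.9 were used.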

Additional observations from a re-analysis of the deposited data

How the results depend on the processing

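The member median ranged from -0.09 to -0.003 over 15 alternatives. The count past 2-fold towards LI stayed 0 under each of them but the nearest-start assignment (1 of 73 members, Ndufs4, against 3.24% of all genes). Over the settings, the share of all genes past 2-fold towards LI ran from 1.51% (peaks of at least 1 kb) to 4.68% (no filter). Towards spleen, Sdhaf4 alone (1 member) passed 2-fold with deposited scaling, a pseudocount of 5, length weighting or any overlap (1.65%, 1.23%, 1.58% and 1.72% of all genes). With the nearest start it was Ndufb3 alone (1 of 73, against 1.90%). The count towards spleen was 5 of 84 members with no filter, which adds Cox7c, Ndufaf4 and Uqcr10 (3.06% of all genes). It was 2 of 73 with the strongest peak, Cox8b and Ndufaf8 (1.62%). It was 0 with a filter of 200 RPKM (0.89%) or peaks of at least 1 kb (0.45%). Intervals above 0 numbered 7 with deposited scaling, length weighting or the strongest peak (22.2%, 19.8% and 16.6% of all genes under the same settings), 8 of 85 with any overlap (19.2%), 1 of 10 with the filter of 200 RPKM (20.1%), 1 with the GC correction (12.4%) and 13 at 75 bp per read (28.7%). Intervals below 0 numbered 7 with no filter (15.7% of all genes), 12 with length weighting (22.2%), 8 with any overlap (15.8%), 0 of 10 with the filter of 200 RPKM (22.8%) and 21 of 78 at 75 bp (26.8%). That filter left the complex V median at 0.34, resting on the long Atp5o record alone. In members with a peak, the median level over both libraries was 5.30 RPKM per length and 12.2 RPKM within peaks. Among members whose interval lay off 0, the sign turned in Atp5f1 (0.074 with the strongest peak), Ndufb9 (-0.026 with the nearest start) and Ndufa11 (-0.024 with the GC correction); the cause was not tested. The under-20-kb background, the fit without the long Atp5o record and the corrected medians of the other lists were chosen after seeing the data. No paired analysis was possible because each tissue had 1 library. With about 8 to 1810 reads per gene at 200 bp per read, differences within the counting intervals were not detectable at this depth.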
